A study of Mus musculus with 24 samples.

Results

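A set of 9 genes that store, release and buffer calcium in cerebellar Purkinje cells were examined in mice that express GFP-PR28, a green fluorescent protein fused to a proline-arginine repeat peptide of the kind made from the expanded repeat of familial amyotrophic lateral sclerosis and frontotemporal dementia. The genes, Itpr1, Ryr1, Car8, Atp2a2, Atp2a3, Casq2, Stim1, Calb1 and Pvalb, were taken by symbol from the 46078 genes of the count tables, and each symbol had 1 gene identifier. They were selected on their count differences between heterozygous and control mice in these same libraries, so those differences are described by their values. No test of them is given as evidence, and how many of the 9 genes pass a call threshold between genotypes is printed only as a property of the chosen set. RNA was sequenced from cerebellum (at 2 and at 5 months) and from cortex and lumbar spinal cord (at 6 months), in 3 control and 3 heterozygous mice each (24 libraries). All mice were C57BL/6 and carried 1 floxed GFP-PR28 allele at the Rosa26 site (GFP-PR28 flox/+). Heterozygous mice, labelled OE, also carried Thy1-Cre (Thy1-Cre+/-), which removes a stop before GFP-PR28 in neurons. Control mice, labelled WT, were littermates without Cre (Thy1-Cre-/-). By the study's description the GFP-PR28 protein of the cerebellum lies mainly in the Purkinje cell layer, although Cre itself is also abundant in granule cells.

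Purkinje cells are the only output neurons of the cerebellar cortex, and their calcium signals are shaped by an unusually rich set of store and buffer proteins. Glutamate at the parallel fibre synapse activates mGluR1, phospholipase C makes inositol 1,4,5-trisphosphate (IP3), and IP3 opens the IP3 receptor on the endoplasmic reticulum. SERCA pumps return calcium to the store, calsequestrin binds it in the lumen, STIM1 senses when the store is empty, and calbindin and parvalbumin bind calcium in the cytosol. Loss of several of these proteins, among them IP3 receptor 1 and carbonic anhydrase 8, causes ataxia in mice.

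In the cerebellum of heterozygous mice, Atp2a3, the SERCA3 pump, and Casq2, a calsequestrin, had lower transcript levels than in control mice at both ages, and for both genes the values of the 2 genotypes did not overlap at either age. The log2 fold change of Atp2a3 was -0.69 (SE 0.10) at 2 months and -0.63 (SE 0.056) at 5 months, and that of Casq2 was -0.56 (SE 0.087) and -0.43 (SE 0.084). The release channels Itpr1 and Ryr1 and the buffer Calb1 lay within 0.1 of 0 on the log2 scale at both ages. In the cortex and the spinal cord the values of the 2 genotypes overlapped for all 9 genes.

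Counted reads per library ranged from 12835400 to 25490124. Some libraries stood apart from others of their tissue. The 2-month control mouse 1 had the widest scatter of log2 deviations from the mean of the cerebellar libraries (SD 0.433, against 0.206 to 0.256 in the other 11), and its deviations followed GC content (Spearman's rho 0.426 over genes). The 5-month control mouse 9 carried skeletal muscle transcripts, with a sum over 15 muscle markers of 379.6 CPM (counts scaled to a TMM-normalized library size) against 56.0 to 69.7 CPM in the other 5-month libraries. Cortex control mouse 1 had the widest scatter of the cortex libraries (SD 0.506), striatal markers were higher in all 3 heterozygous cortex libraries, and the muscle and dorsal root markers of the spinal cord varied between libraries. Values that these libraries moved are also given without them. The tissue labels were met by the markers: 10 granule cell markers summed to 6210 to 7028 CPM in every cerebellar library, and 6 cholinergic motor neuron markers to 254 to 334 CPM in spinal cord, 3.38 to 13.7 CPM in cortex and under 1 CPM in cerebellum.

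Levels between genes are compared only after division by the total exon length in kilobases (CPM per kb). In control cerebellum at 5 months the order of these length-scaled levels was Pvalb at 455 ± 25.0, Car8 at 411 ± 6.39, Atp2a2 at 272 ± 3.95, Calb1 at 227 ± 2.73 and Itpr1 at 212 ± 4.10 CPM per kb (SD, n = 3). Atp2a3 followed at 55.8 ± 1.17 CPM per kb, Casq2 at 12.1 ± 0.384, Stim1 at 9.60 ± 0.0908 and Ryr1 at 4.10 ± 0.124. Neighbours in this order were separated by more than the sum of their SDs. The SDs measure the spread between mice only. The total exon length covers all annotated transcripts of a gene, expressed or not, so the order also depends on that choice of length. At 2 months the order was the same, but Pvalb (502 ± 111) and Car8 (421 ± 19.1) did not differ beyond their spread. Thus the SERCA2 pump, encoded by Atp2a2, had a higher transcript level per length than SERCA3, and the IP3 receptor a higher one than the ryanodine receptor.

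**Figure D1:**
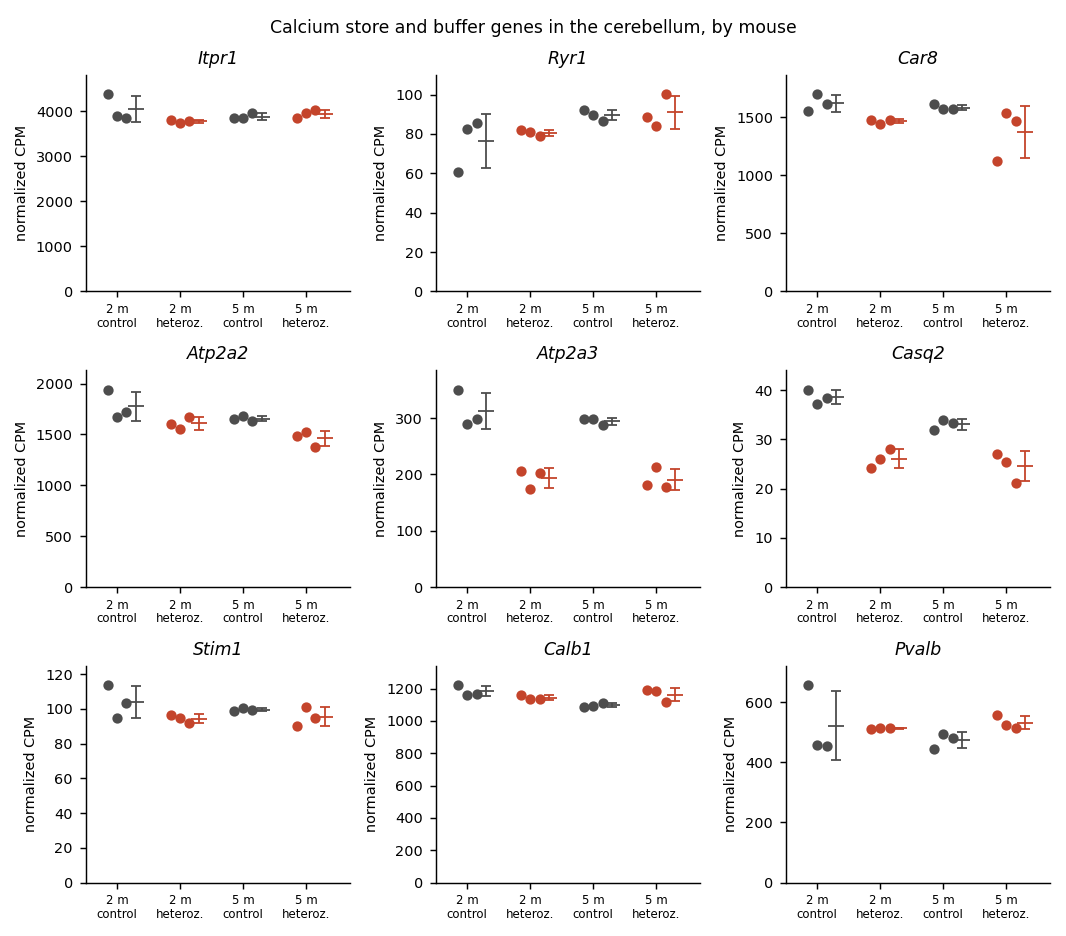
Normalized CPM (vertical axes, from 0) of the 9 genes in each cerebellar library, in control mice (grey) and heterozygous mice (red) at 2 and 5 months; each point is 1 mouse, and the bar beside the points is the mean with its SD (n = 3). The heterozygous values of Atp2a3 and Casq2 lie below all control values at both ages, and mouse 1 is the highest 2-month point for Atp2a3 and Pvalb and the lowest for Ryr1.

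The first group of genes serves calcium release. Itpr1 encodes the type 1 IP3 receptor, the main release channel of Purkinje cells (ENSMUSG00000030102, chr6:108213096-108551109 on GRCm38, plus strand). At 2 months its level was 4376, 3892 and 3857 CPM in control mice 1, 3 and 5, and 3807, 3731 and 3783 CPM in heterozygous mice 2, 4 and 6. The heterozygous values were lower than the control values without overlap, and the highest value was that of control mouse 1. The log2 fold change was -0.10 (SE 0.069), and -0.038 without mouse 1. At 5 months the values were 3839, 3839 and 3969 CPM in control mice 7, 9 and 11 and 3842, 3952 and 4026 CPM in heterozygous mice 8, 10 and 12. These overlapped, with a log2 fold change of 0.022 (SE 0.037).

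Ryr1 encodes the type 1 ryanodine receptor, the release channel best known from skeletal muscle (ENSMUSG00000030592, chr7:29003344-29125179, minus strand). Its level at 2 months was 60.4, 82.7 and 85.4 CPM in control mice and 81.9, 80.8 and 78.8 CPM in heterozygous mice, in the order of mouse numbers used above. Control mouse 1 had the lowest value, and the other 2 controls lay above all heterozygous mice. At 5 months the values were 92.2, 89.8 and 86.8 CPM in control and 88.7, 84.1 and 100.2 CPM in heterozygous mice, which overlapped. The log2 fold changes were 0.081 (SE 0.13) and 0.024 (SE 0.059), and the former was -0.062 without mouse 1. Control mouse 9, which carried muscle transcripts, had neither the highest nor the lowest Ryr1 value of its group.

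Car8 encodes carbonic anhydrase 8, a protein without carbonic anhydrase activity that binds the IP3 receptor and lowers its affinity for IP3 (ENSMUSG00000041261, chr4:8143362-8239041, minus strand). At 2 months its level was 1552, 1699 and 1618 CPM in control mice and 1480.1, 1445 and 1476 CPM in heterozygous mice. At 5 months it was 1613, 1569 and 1572 CPM in control mice and 1122, 1541 and 1469 CPM in heterozygous mice. All heterozygous values were below all control values at both ages, and mouse 8 was far lower than the other 5 mice at 5 months. The log2 fold changes were -0.14 (SE 0.065) and -0.20 (SE 0.13), and the latter was -0.074 without mouse 8.

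The second group fills the store and holds calcium in it. Atp2a2 encodes SERCA2, the widely expressed pump of the endoplasmic reticulum (ENSMUSG00000029467, chr5:122453513-122502225, minus strand). Its level was 1938, 1671 and 1716 CPM in control and 1603, 1550.1 and 1669 CPM in heterozygous mice at 2 months. At 5 months it was 1648, 1678 and 1630.5 CPM in control and 1486, 1521 and 1376 CPM in heterozygous mice. The heterozygous values were lower without overlap at both ages, and at 2 months the highest of them differed from the lowest control value by less than the spread within either group. The log2 fold changes were -0.14 (SE 0.076) and -0.18 (SE 0.041), and the former was -0.075 without mouse 1.

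Atp2a3 encodes SERCA3, a pump with a lower affinity for calcium than SERCA2 (ENSMUSG00000020788, chr11:72961169-72993044, plus strand). In the brain it is enriched in Purkinje cells. At 2 months its level was 350.1, 290.1 and 297 CPM in control mice 1, 3 and 5 and 207, 173 and 202 CPM in heterozygous mice 2, 4 and 6. At 5 months it was 298, 298 and 287 CPM in control mice 7, 9 and 11 and 182, 213 and 178 CPM in heterozygous mice 8, 10 and 12. The highest heterozygous value of either age was below the lowest control value of either age. Over the 13 fits run, its log2 fold change ranged from -0.73 to -0.59 at 2 months and from -0.71 to -0.58 at 5 months. In bulk tissue, fewer cells that make a transcript and less transcript per cell cannot be told apart.

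Casq2 encodes calsequestrin 2, which binds calcium with low affinity and high capacity in the store lumen and is otherwise known from cardiac muscle (ENSMUSG00000027861, chr3:102086415-102146514, plus strand). At 2 months its level was 40.1, 37.2 and 38.3 CPM in control and 24.1, 26.0 and 28.0 CPM in heterozygous mice. At 5 months it was 31.9, 34.0 and 33.3 CPM in control and 27.0, 25.4 and 21.2 CPM in heterozygous mice. These values rest on 337 to 558 reads per library. The groups did not overlap at either age, and the means of the 2 genotypes differed by more than the SD of either. Over the 13 fits its log2 fold change ranged from -0.62 to -0.51 at 2 months and from -0.51 to -0.34 at 5 months. Without mouse 1 its 2-month log2 fold change was -0.54, and without mouse 9 its 5-month log2 fold change was -0.41.

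The sequences directly upstream of Atp2a3 and Casq2, the pair with the lowest fold changes, are given with that of Pvalb, a buffer gene whose 5-month values lay on the other side of the controls. Each is the 250 bases before the RefSeq transcription start on GRCm38.p6, written 5′ to 3′ on the gene's own strand. The Atp2a3 window is chr11:72960919-72961168 (plus strand), the Casq2 window chr3:102086165-102086414 (plus strand) and the Pvalb window chr15:78206401-78206650 (minus strand, the first of 2 listed starts).
Atp2a3: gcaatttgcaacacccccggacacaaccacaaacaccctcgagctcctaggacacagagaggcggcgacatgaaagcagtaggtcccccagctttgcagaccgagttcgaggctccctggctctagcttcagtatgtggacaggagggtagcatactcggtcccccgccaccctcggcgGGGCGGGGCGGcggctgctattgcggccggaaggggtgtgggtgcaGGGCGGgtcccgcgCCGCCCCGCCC
Casq2: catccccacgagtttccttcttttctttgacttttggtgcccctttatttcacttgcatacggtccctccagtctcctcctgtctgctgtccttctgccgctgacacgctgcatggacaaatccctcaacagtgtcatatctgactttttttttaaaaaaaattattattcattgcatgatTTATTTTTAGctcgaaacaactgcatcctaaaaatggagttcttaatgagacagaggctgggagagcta
Pvalb: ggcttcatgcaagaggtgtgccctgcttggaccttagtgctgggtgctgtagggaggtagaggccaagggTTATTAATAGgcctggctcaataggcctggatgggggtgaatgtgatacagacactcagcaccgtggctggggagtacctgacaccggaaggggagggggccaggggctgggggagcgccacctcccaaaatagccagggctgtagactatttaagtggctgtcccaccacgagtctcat
Capitals mark matches, on either strand, to 4 motifs that were searched: the TATA box TATAAA, the GC box GGGCGG, the nuclear receptor element AGGTCA and the MEF2 consensus, an AT-rich muscle and neuron motif. Matches of 1 motif were allowed to overlap each other. The Atp2a3 window, extended to 50 bases past the start, held 5 GC boxes and none of the other 3 motifs, while the Casq2 and Pvalb windows each held 1 MEF2 match and no GC box. Ryr1 and Stim1, for which upstream sequences were also given, held 2 and 8 GC boxes, and the second Pvalb start held no match. Of all 32851 listed windows of this length, 12.4% held TATAAA, 32.7% GGGCGG, 14.0% AGGTCA and 2.92% the MEF2 consensus. These matches describe the sequence only.

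The third group senses the store and buffers the cytosol. Stim1 encodes the sensor that couples an empty store to calcium entry (ENSMUSG00000030987, chr7:102267806-102437319, plus strand). Its level was 114, 95.0 and 103 CPM in control and 96.6, 94.7 and 91.7 CPM in heterozygous mice at 2 months, and 98.6, 101 and 99.4 CPM and 90.3, 101 and 94.8 CPM at 5 months. The genotypes overlapped at both ages, with log2 fold changes of -0.14 (SE 0.081) and -0.059 (SE 0.050).

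Calb1 encodes calbindin, the fast buffer that also serves as the usual Purkinje cell stain (ENSMUSG00000028222, chr4:15881264-15908064, plus strand). At 2 months its level was 1220.0, 1162 and 1168 CPM in control and 1162, 1133 and 1136 CPM in heterozygous mice, which met at their edges. At 5 months it was 1089, 1094 and 1114 CPM in control and 1188, 1184 and 1116 CPM in heterozygous mice, which were all higher, mouse 12 only just. The log2 fold changes were -0.047 (SE 0.060) and 0.082 (SE 0.038). When length and GC content entered the fit as an offset, the 2-month value moved to -0.42.

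Pvalb encodes parvalbumin, a slower buffer that Purkinje cells share with molecular layer interneurons and fast muscle fibres (ENSMUSG00000005716, chr15:78191114-78206400, minus strand). At 2 months its level was 657, 457 and 454 CPM in control and 511, 514 and 515 CPM in heterozygous mice. Mouse 1 was the highest of all, and the other 2 controls were the lowest. The log2 fold change was -0.024 (SE 0.14) with mouse 1 and 0.17 without it. At 5 months the level was 445, 495 and 482 CPM in control and 557, 526 and 514 CPM in heterozygous mice, all of which were higher, with a log2 fold change of 0.17 (SE 0.045). Control mouse 9, the library with muscle transcripts, had the highest control value. Without it the log2 fold change was 0.20. The 5 molecular layer interneuron markers summed to 678 to 717 CPM in control and 701 to 728 CPM in heterozygous mice at 5 months, with 4 of 5 positive and 0 called. Their part in the Pvalb values was not tested.

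**Figure D2:**
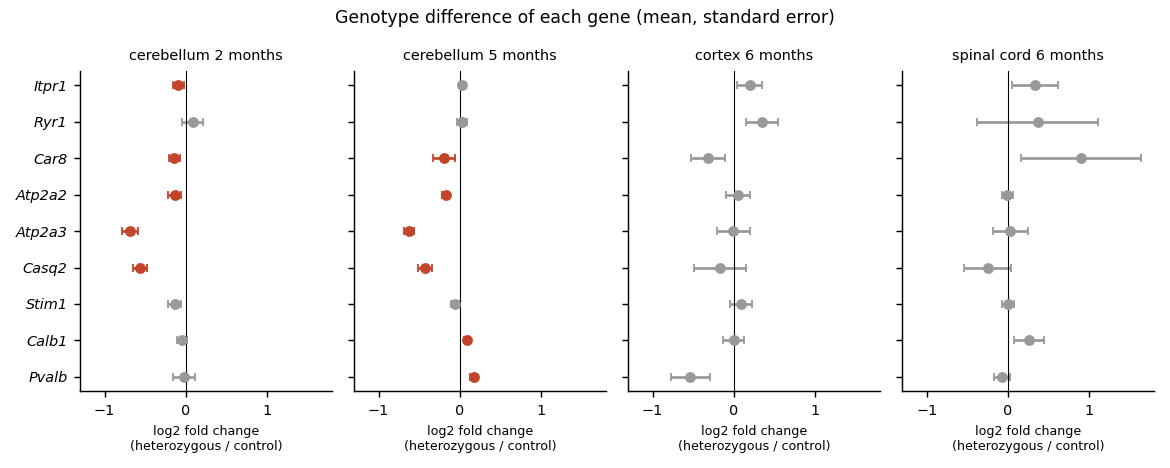
Log2 fold change of heterozygous against control mice for the 9 genes in the 4 comparisons; points are estimates, bars their standard errors, and red points mark genes whose 3 heterozygous and 3 control values do not overlap. Atp2a3 and Casq2 are the lowest points in both cerebellar panels, at -0.69 and -0.56 at 2 months and -0.63 and -0.43 at 5 months, and no point of the cortex and spinal cord panels is red.

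A gene was called at an adjusted p under 0.05 in edgeR's quasi-likelihood test with a log2 fold change over 0.2 in size. At 5 months 2 of the 9 genes, Atp2a3 and Casq2, were called lower and 0 higher, where 2.72% of all 16481 genes tested were called lower and 2.37% higher (5.09% in all). At 2 months 0 of the 9 genes and 0 of 16208 genes tested (0%) were called by edgeR in either direction. Over all genes an unadjusted p under 0.05 was found for 836 at that age, and DESeq2 called 45. The 2-month count rested on control mouse 1. Without it edgeR called 195 genes lower and 167 higher of 16510 (1.18% and 1.01%), and 2 of the 9 genes, Atp2a3 and Casq2, were among those called lower. The counts were 0 when any other 2-month library was left out. The heterozygous values lay below all control values for 5 genes at 2 months, where this held for 7.33% of all genes, and for 4 genes at 5 months, where it held for 12.9%. They lay above them for 0 genes at 2 months (6.85% of all genes) and for 2 genes at 5 months (12% of all genes). In either direction the groups were apart for 14.2% of all genes at 2 months and 24.9% at 5 months. Since the genes were picked with these differences known, nothing is read from these counts and shares. The median log2 fold change of the 9 genes was -0.14 at 2 months and -0.059 at 5 months, beside 0.0082 and 0.0088 over all genes tested.

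Whether the genotype difference changed between the ages was estimated as an interaction over all 12 cerebellar libraries. For Atp2a3 the 5-month difference minus the 2-month difference was 0.061 (SE 0.13) on the log2 scale, and for Casq2 it was 0.13 (SE 0.13). For the other 7 genes it lay between -0.057 and 0.19, with the highest value for Pvalb (0.19, SE 0.16). Over 16845 genes edgeR called 0 interactions (0%), with an unadjusted p under 0.05 for 646, and DESeq2 called 4. Without 2-month control mouse 1 edgeR called 3.

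Purkinje cell markers outside the 9 genes moved in both directions at 5 months. Of 11 such markers, 3 were called higher and 3 lower, with a median log2 fold change of 0.11. Pcp2, the Purkinje cell protein L7, was higher (0.20, SE 0.045), as were the transcription factors Lhx1 (0.25, SE 0.052) and Foxp2 (0.40, SE 0.12). Ppp1r17, the G-substrate phosphatase inhibitor (-0.30, SE 0.051), the scaffold Grid2ip (-0.37, SE 0.077) and Rgs8, a regulator of G protein signalling (-0.57, SE 0.044), were lower. The summed CPM of the 11 markers was 2839 to 2928 in control and 2384 to 2567 in heterozygous mice. Rgs8 alone accounted for 1345 ± 47.2 CPM in control and 905 ± 53.6 CPM in heterozygous mice. These CPM are not divided by exon length, so long transcripts weigh more in the sum. At 2 months the sum was 2844 to 3401 CPM in control and 2435 to 2582 CPM in heterozygous mice, with a median log2 fold change of -0.049 and no call. Without control mouse 1 this median was 0.049. None of the 11 markers was at 0 in either genotype. Microglial markers were also higher at 5 months, with 8 of the 12 tested called and a summed level of 173 to 175 CPM in control and 223 to 291 CPM in heterozygous mice. Of 8 astrocyte and Bergmann glia markers 2 were called higher and 0 lower, with a median of 0.19 and a summed level of 2999 to 3082 CPM in control and 3085 to 3173 CPM in heterozygous mice. Of 7 oligodendrocyte markers 6 were negative and 0 called, with a summed level of 4249 to 4470 CPM and 3926 to 4045 CPM. No marker of these 3 lists was at 0. The part of these shifts in the differences of the 9 genes and of the calcium lists was not tested.

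The ages were also compared in control mice, a comparison that played no part in choosing the genes. Different mice were used at each age and their sequencing runs are not given, so age cannot be told apart from cohort or run. Between 2 and 5 months 0 of the 9 genes changed by edgeR's quasi-likelihood test, 1 had an unadjusted p under 0.05, and DESeq2 called 0. Of all 16216 genes tested edgeR called 0 (0%), with 1135 at an unadjusted p under 0.05, and DESeq2 called 35. Without 2-month control mouse 1 edgeR called 135 genes lower and 169 higher of 16529 (0.817% and 1.02%), among them 2 calcium list genes lower and 1 higher. Casq2 was lower in all 3 controls at 5 months than in any at 2 months, with a log2 fold change of -0.22 (SE 0.077) and an adjusted p of 0.689 (edgeR). Calb1 was also lower without overlap (-0.11, SE 0.062) and Ryr1 higher without overlap (0.24, SE 0.13), with adjusted p of 0.696 and 0.694 (edgeR). Such separation was found for 8.64% of all genes downwards and 9% upwards (17.6% in all). Without control mouse 1 the value of Casq2 was -0.19 and that of Ryr1 0.092. Atp2a3 had a log2 fold change of -0.084 (SE 0.086) with age, and 0.0027 without mouse 1.

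Other genes of the calcium pathway were followed in 6 lists of 74 genes, chosen with earlier results of these data known. Of these, 71 could be tested at 5 months. There 12 were called lower and 2 higher, where 2.72% of all genes tested were called lower and 2.37% higher. A negative log2 fold change was found for 53 of the 71, beside 47.7% of all genes tested. The median was -0.072, beside 0.0088 over all genes tested. Because of how the lists were chosen, these counts are a description only. Of the genes that act on store release, uptake and lumen, 15 of 16 were negative, with a median of -0.18 and 3 called lower. Among them Ryr3, the type 3 ryanodine receptor, had the largest called change of the 6 lists (49.8 ± 1.41 CPM in control and 27.2 ± 1.40 CPM in heterozygous mice, log2 fold change -0.87 (SE 0.067), adjusted p 8.79e-08 by edgeR). Ryr2, the cardiac and neuronal ryanodine receptor (-0.21, SE 0.045), and Jph3, which ties the endoplasmic reticulum to the plasma membrane (-0.22, SE 0.046), were called with small changes. Atp2a1, the SERCA1 pump of fast muscle, had the lowest fold change of the lists (-4.18, SE 2.43) but was not called. Its values were 0.404, 63.7 and 0.311 CPM in control and 0.983, 1.30 and 1.25 CPM in heterozygous mice, so only mouse 9 was high. That library carried muscle transcripts. The counts of negative values and the medians of the lists are given with it in the fit only. Its part in them was not tested.

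Of the 14 genes of IP3 signalling, 3 were called lower. These were Itpka, an IP3 kinase (-0.45, SE 0.063), Plcb3, a phospholipase C (-0.40, SE 0.055), and Homer3, the scaffold between mGluR1 and the IP3 receptor (-0.25, SE 0.040), with adjusted p of 1.58e-04, 1.29e-04 and 6.22e-04 (edgeR). All 3 members of the sodium-calcium exchanger family were called lower among 13 plasma membrane genes. The log2 fold change was -0.44 (SE 0.050) for Slc8a2, -0.36 (SE 0.086) for Slc8a3 and -0.34 (SE 0.085) for Slc8a1, with adjusted p of 1.38e-05, 0.0189 and 0.0171 (edgeR). Of 17 cytosolic calcium-binding proteins tested, Necab3 (-0.71, SE 0.14), the sensor Vsnl1 (-0.43, SE 0.074) and the sensor Ncald (-0.38, SE 0.074) were called lower, and Necab1 was called higher (0.71, SE 0.11). Orai2, a pore of store-operated entry, was the only gene of 5 in its list that was called (0.21, SE 0.055), and it was higher. No gene of 6 for mitochondrial uptake was called (2 positive and 4 negative values). In the fit over all 12 cerebellar libraries 5 genes of the lists were called instead of 14, and without mouse 9 there were 9 called lower and 3 higher.

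**Figure D3:**
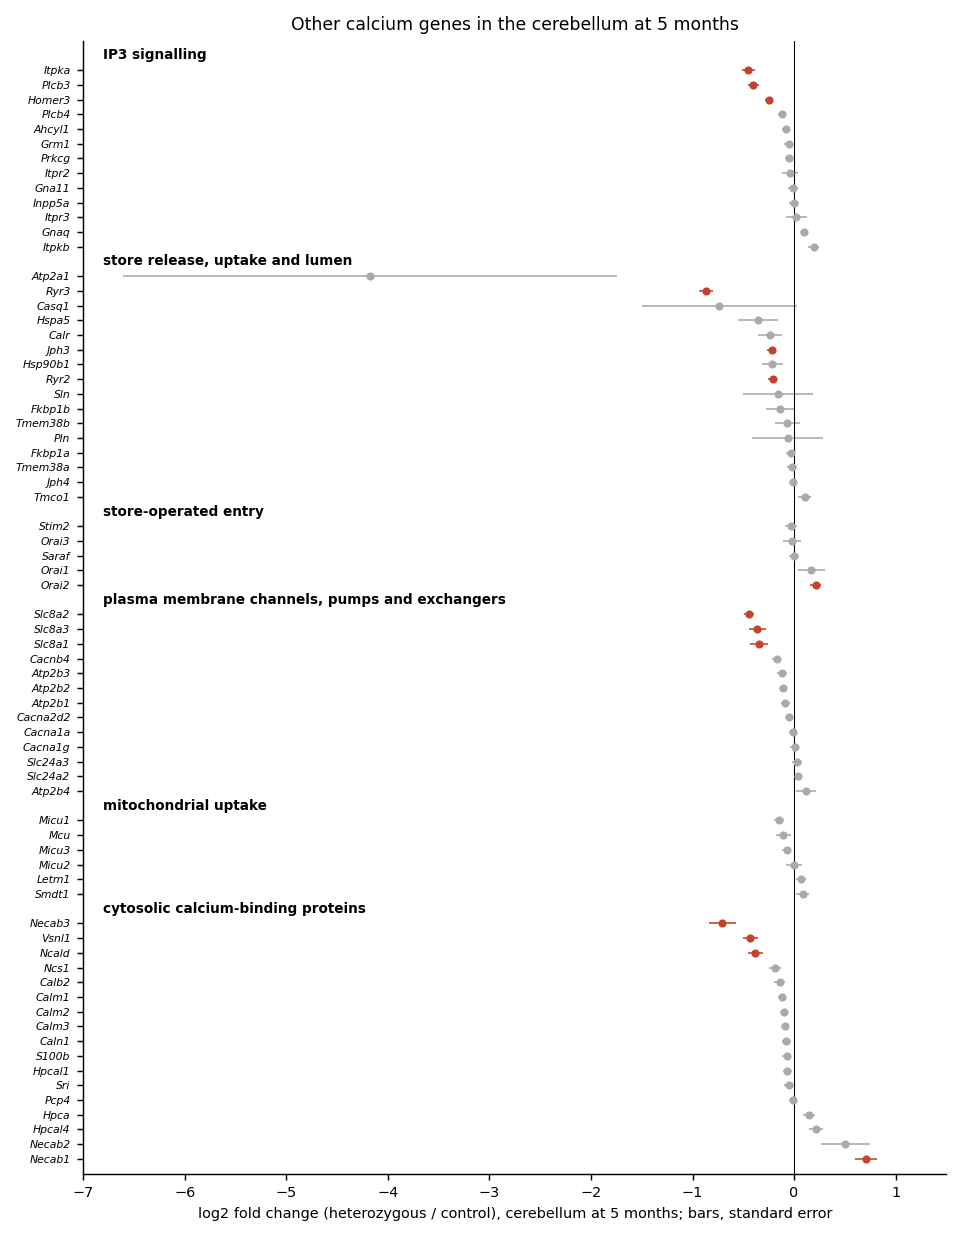
Log2 fold change of heterozygous against control mice in the cerebellum at 5 months for the tested genes of 6 calcium lists, with 1 of the 71 not shown; points are estimates, bars standard errors, and red marks genes called at an adjusted p under 0.05 with a log2 fold change over 0.2 in size. Of the 14 red points 12 lie left of 0, Ryr3 lies at -0.87, and the grey point with the widest bar is Atp2a1.

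At 2 months edgeR called 0 of the 71 tested genes of these lists, with 11 at an unadjusted p under 0.05, and DESeq2 called 3. Of the 14 genes called at 5 months, 12 had the same sign at 2 months. Without control mouse 1, 11 genes of the lists were called, 9 lower and 2 higher, where 1.18% of all genes were called lower and 1.01% higher in that fit, and 8 of them were among the 14 of 5 months, all in the same direction. These were Itpka, Ryr3, Plcb3, Necab3, Slc8a3, Slc8a2, Ncald and Homer3. The share of all genes with such agreement between the ages is not given. Since the lists were chosen with earlier results of these data known, the agreement is a description only. Necab2 and Atp2a1 were the genes called higher, Atp2a1 at 0.941, 0.20 and 0.231 CPM in control and 0.882, 1.08 and 1.04 CPM in heterozygous mice.

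The genes with the most similar pattern over the 12 cerebellar libraries were sought with Pearson's r to the mean of the 9 standardized profiles, each library centred on its age. They were Gng13 (r = 0.97), Slc1a3 (0.97), Ppp1r17 (0.97), Ppme1 (0.96) and 2610507B11Rik (0.96), out of 16836 genes. The libraries share depth and base composition effects, among them those of mouse 1. The genotype difference, on which the 9 genes were chosen, also stayed in the profiles, since libraries were centred on age only. A high r can restate that difference. Without mouse 1 the 5 most similar genes were Anks1b (0.95), Ptprg (0.95), Zfp385c (0.95), Serpinb8 (0.95) and Rara (0.94), and 0 of the 5 were shared. For Atp2a3 alone, chosen after its values were seen, Gnao1 (0.99) and Gabbr1 (0.98) were among the 5 most similar genes with and without mouse 1. For Casq2, chosen in the same way, these were Fer1l5 (0.97), Map2k4 (0.96) and Ppapdc2 (0.96), which differ from those of Atp2a3. The r in brackets are those over all 12 libraries.

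The same 9 genes were then measured in tissue without Purkinje cells. In cortex the length-scaled order in control mice was Atp2a2 at 150.0 ± 29.4 and Pvalb at 103 ± 39.7 CPM per kb, which did not differ beyond their spread. Itpr1 (35.5 ± 8.06) and Calb1 (26.8 ± 4.14) followed, also within their spread of each other, and then Stim1 (8.72 ± 1.59), Car8 (3.90 ± 0.365), Atp2a3 (1.70 ± 0.303), Ryr1 (1.25 ± 0.258) and Casq2 (0.807 ± 0.101). Atp2a3 and Ryr1 did not differ beyond their spread. The cerebellar and the cortical and spinal counts came in separate tables that were normalized apart, so their levels stand side by side only. For Atp2a3 this was 287 to 298 CPM in 5-month control cerebellum and 7.13 to 10.1 CPM in 6-month control cortex, and for Casq2 31.9 to 34.0 CPM and 1.89 to 2.42 CPM.

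**Figure D4:**
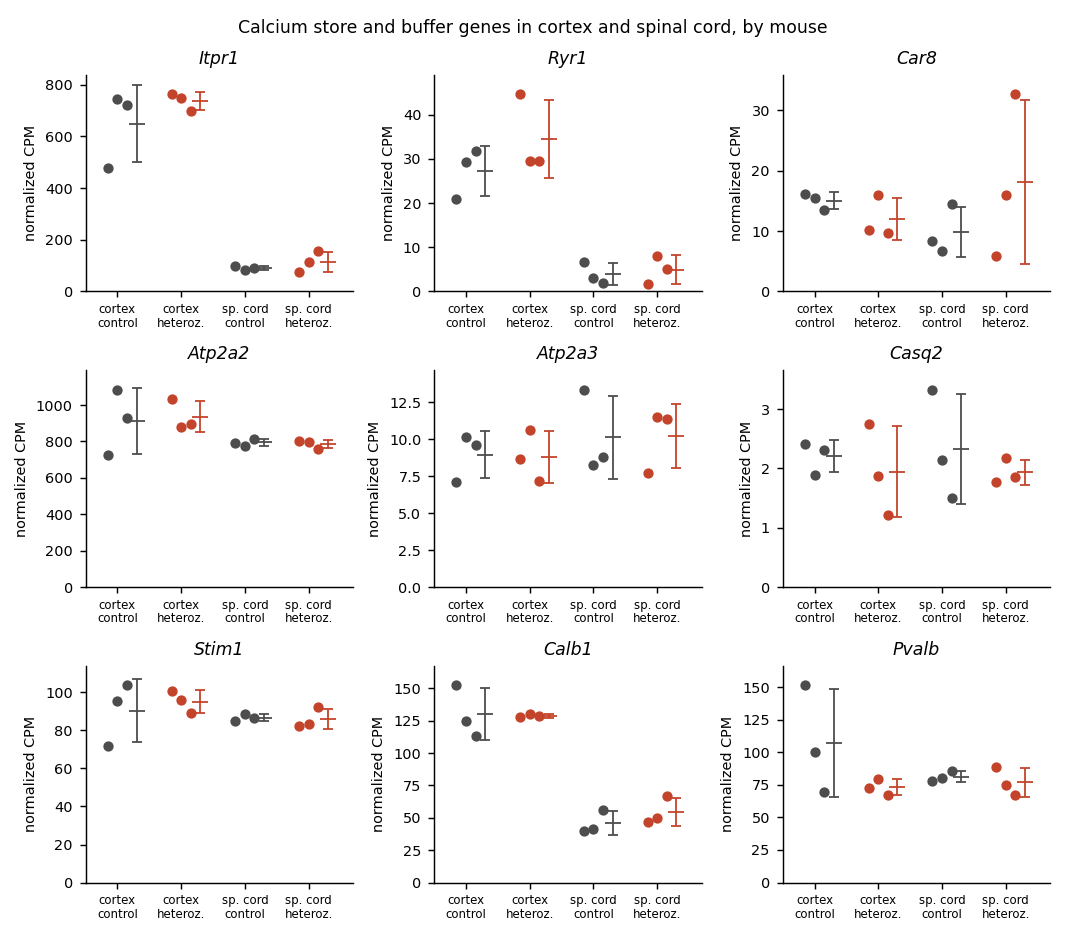
Normalized CPM (vertical axes, from 0) of the 9 genes in each cortex and spinal cord library at 6 months, in control mice (grey) and heterozygous mice (red); each point is 1 mouse, and the bar beside the points is the mean with its SD (n = 3). The genotypes overlap in every panel, the low control point of cortex Itpr1 and the high one of cortex Pvalb are mouse 1, and Itpr1 and Car8 are highest in spinal cord heterozygous mouse 3.

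In cortex 0 of the 9 genes were called between genotypes, where 0.0358% of 16744 genes were called higher and 0% lower, and 0 of 9 were free of overlap, where 20.6% of all genes were (9.05% above and 11.6% below). Without control mouse 1 edgeR called 93 genes higher and 41 lower of 17117 (0.543% and 0.24%), and without control mouse 3 it called 38 and 1. Pvalb, in this tissue a marker of fast-spiking interneurons, had the lowest log2 fold change (-0.54, SE 0.24). Its values were 151, 99.9 and 69.7 CPM in control and 72.3, 79.7 and 67.5 CPM in heterozygous mice, so control mouse 1 was far higher than the rest. Without mouse 1 the log2 fold change was -0.19, and without control mouse 3, the lowest control, it was -0.78. Of 6 other markers of these interneurons 4 were negative and 0 called, with a median of -0.076.

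Itpr1 was 479.9, 746 and 723 CPM in control and 763, 748 and 698 CPM in heterozygous cortex, a log2 fold change of 0.19 (SE 0.16), or 0.030 without the low control mouse 1. Ryr1 was 21.0, 29.3 and 31.7 CPM and 44.6, 29.5 and 29.5 CPM, with heterozygous mouse 1 the highest (0.35, SE 0.20). Car8 was 16.2, 15.5 and 13.5 CPM and 10.2, 16.0 and 9.70 CPM (-0.32, SE 0.21). The 3 lowest fold changes in size were those of Calb1 (-0.0045, SE 0.13), Atp2a3 (-0.011, SE 0.20) and Atp2a2 (0.052, SE 0.14). Casq2, with 21 to 48 reads per library, had -0.17 (SE 0.32) and Stim1 0.088 (SE 0.14). The 11 striatal neuron markers were all positive (median 1.77, summed level 577 to 1202 CPM in control and 1485 to 2358 CPM in heterozygous cortex), and their part in the cortical values of the 9 genes was not tested. Of the 71 other calcium genes tested in cortex edgeR called 0, with 15 at an unadjusted p under 0.05, and DESeq2 called 0.

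In control spinal cord the length-scaled order was Atp2a2 (131 ± 3.16 CPM per kb), Pvalb (78.2 ± 4.04), Calb1 (9.44 ± 1.90), Stim1 (8.37 ± 0.181), Itpr1 (4.99 ± 0.362), Car8 (2.57 ± 1.07), Atp2a3 (1.92 ± 0.530), Casq2 (0.850 ± 0.338) and Ryr1 (0.181 ± 0.114). Calb1 and Stim1, and Car8 and Atp2a3, did not differ beyond their spread. Between genotypes 0 of the 9 genes were called, where 0.103% of 17522 genes were called higher and 0.00571% lower (0.108% in all), and again 0 of 9 were free of overlap, where 11.4% of all genes were (5.45% above and 5.97% below). Without heterozygous mouse 1 edgeR called 399 genes higher and 244 lower of 17927 (2.23% and 1.36%), and 0 to 1 when any other spinal cord library was left out. Car8 had the highest log2 fold change, 0.89 (SE 0.74), from values of 8.34, 6.78 and 14.6 CPM in control and 5.82, 15.9 and 32.7 CPM in heterozygous mice 1 to 3. Heterozygous mouse 3 was the highest and mouse 1 the lowest of all 6. Itpr1 was 97.5, 84.4 and 92.2 CPM in control and 75.1, 112 and 155 CPM in heterozygous mice, with the same mice at the ends (0.34, SE 0.28). Calb1 was 39.6, 41.3 and 56.4 CPM and 46.7, 49.9 and 66.6 CPM, again highest in mouse 3 (0.26, SE 0.18). Without mouse 3 the log2 fold change was 0.16 for Car8, 0.050 for Itpr1 and 0.087 for Calb1.

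The Purkinje marker Pcp2 was 2.34, 0.955 and 2.96 CPM in control and 0.742, 2.69 and 10.1 CPM in heterozygous spinal cord, and Ppp1r17 was 1.64, 1.38 and 2.83 CPM and 1.43, 2.43 and 5.14 CPM. Both were thus highest in heterozygous mouse 3, as were Itpr1, Car8 and Calb1. Of the 11 Purkinje markers only Pcp2 and Ppp1r17 are given singly here. They make up a small part of the summed level, so their pattern does not stand for the list. The summed level of the 11 Purkinje markers was 187 to 211 CPM in control and 195 to 259 CPM in heterozygous mice, with 0 markers at 0. All 4 tested markers of dorsal root and peripheral nerve were positive (median 0.89), with a summed level of 344 to 1045 CPM in control and 146 to 1560 CPM in heterozygous mice, highest in mouse 3 and lowest in mouse 1. The summed level of the granule cell markers was 142 to 319 CPM in control and 155 to 313 CPM in heterozygous mice. The part of these levels in the values of the 9 genes was not tested.

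**Figure D5:**
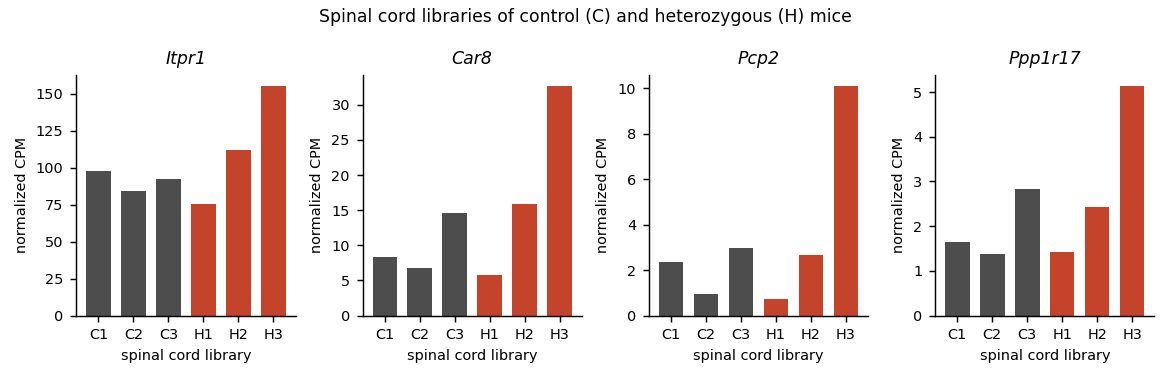
Normalized CPM (vertical axes, from 0) of Itpr1, Car8 and the Purkinje markers Pcp2 and Ppp1r17 in the 6 spinal cord libraries; bars are single mice, C for control (grey) and H for heterozygous (red). In all 4 panels the bar of heterozygous mouse 3 is the highest, at 155 CPM for Itpr1, 32.7 CPM for Car8, 10.1 CPM for Pcp2 and 5.14 CPM for Ppp1r17. The other Purkinje markers are not drawn.

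Ryr1 was 6.74, 3.06 and 2.03 CPM in control and 1.66, 8.02 and 5.18 CPM in heterozygous spinal cord (0.36, SE 0.74). The highest value was that of heterozygous mouse 2, in which the 15 muscle markers summed to 278 CPM against 15.4 to 41.9 CPM in the other 5 libraries, and the log2 fold change was -0.17 without that mouse. Atp2a2 (-0.0074, SE 0.069), Atp2a3 (0.026, SE 0.21), Stim1 (-0.0014, SE 0.072), Pvalb (-0.073, SE 0.10) and Casq2 (-0.25, SE 0.29) all had fold changes smaller than their standard errors. Of the 71 other calcium genes tested edgeR called 0, with 5 at an unadjusted p under 0.05, and DESeq2 called 0. The interaction of genotype with tissue was called for 3 of 18241 genes (0.0164%). Its highest value among the 9 was that of Car8, at 1.21 (SE 0.73).

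Between tissues of control mice, a comparison not used to choose the genes, 3 of the 9 were lower in spinal cord than in cortex and 0 higher, where edgeR called 20.6% of 17416 genes lower and 20.8% higher (41.3% in all). Itpr1 had a log2 fold change of -2.84 (SE 0.17) and an adjusted p of 3.56e-06, Ryr1 -2.81 (SE 0.38) and 3.78e-04, and Calb1 -1.52 (SE 0.17) and 1.22e-04 (edgeR). For these 3 genes all 3 spinal cord values were below all cortex values, as for 26.5% of all genes (28.2% were above and 54.6% apart in either direction). The other 6 genes overlapped and did not pass the test, with log2 fold changes from -0.61 for Car8 to 0.17 for Atp2a3. Without cortex control mouse 1, 5 of the 9 genes were called, the additional ones being Atp2a2 (-0.34) and Stim1 (-0.20). Car8 was called without spinal cord mouse 3 (-1.0) and Pvalb without cortex mouse 3 (-0.63). The release channels and calbindin thus differed between these tissues with all libraries in the fit, as did 41.3% of all genes. The count of 3 is therefore not read as a trait of the set.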

How the data were processed

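Total RNA of single mice was sequenced from 24 samples. Per the labels and the study's methods, the authors extracted it with TRIzol, made NEBNext Ultra libraries and processed the reads with Trimmomatic 0.30 (trimming), HISAT2 2.0.1 (alignment to the Ensembl mm10 genome) and HTSeq 0.6.1 (counting). They deposited raw counts per gene, in 1 table for cerebellum and 1 for cortex and spinal cord. The counting mode, strand setting and annotation release are not given in the sources used here. Exons of Itpr1, Ryr1 and Atp2a2 share bases with genes on the opposite strand, so reads of these cannot be told apart if strand was not used.

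Each comparison was fitted on its 6 libraries in edgeR 4.0.16 under R 4.3.3, with TMM normalization, filterByExpr (minimum count 10, minimum total 15), robust quasi-likelihood tests and p-values adjusted by Benjamini-Hochberg across every gene that passed the filter. A call needed an adjusted p under 0.05 together with an absolute log2 fold change above 0.2 (for interactions the adjusted p alone). Standard errors were the log2 fold change divided by the root of F. The fits were tested on simulated data. CPM in the text were scaled over the 12 libraries of a table. Gene positions and exon lengths came from GENCODE M21 (GRCm38), upstream sequences from RefSeq (GRCm38.p6), which held 5 of the 9 genes.

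The 9 genes, the 6 calcium lists (74 genes) and the marker lists were chosen with earlier results of these data known. All 9 genes, the list genes called between genotypes and the 5 genes most alike (log2 of CPM plus 0.5) are named, and marker genes mainly by counts. Alternatives were DESeq2 1.42.0, its size factors, no filter, non-robust dispersions, no fold change threshold, a length and GC offset (loess span 0.4), all 12 libraries in 1 fit, a replicate block and leaving out each library. Similarity to Atp2a3 and Casq2 singly was added after the data were seen. Of the lists, 1 gene is counted but not reported here by name.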

Additional observations from a re-analysis of the deposited data

Results flagged for a closer look

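Some genes of the calcium lists had heterozygous values below all control values in the cerebellum and above all of them in another tissue, or the reverse. The tables were normalized apart, the ages differ, and the difference between tissues was not tested. Groups apart in either direction were common over all genes. Their share was 14.2% and 24.9% in the cerebellum at 2 and 5 months, 20.6% in cortex and 11.4% in spinal cord. The share of all genes that part in opposite directions is not given, so nothing is read from these cases. Ryr3 had a log2 fold change of -0.87 in the cerebellum at 5 months and 1.16 in the cortex. Slc8a1 had -0.34 in the cerebellum at 5 months but 0.56 in cortex and 0.35 in spinal cord. Slc8a3 had -0.25 and -0.36 in the cerebellum at 2 and 5 months and 0.33 in the cortex. Cacna2d2, a calcium channel subunit, had -0.11 in the cerebellum at 2 months and 0.41 in the cortex. Hpcal4, a calcium sensor, had 0.22 in the cerebellum at 5 months and -0.36 in the cortex. Cacna2d2 and Hpcal4 are named because of these values, after they were seen. Of these values only those of Ryr3, Slc8a1 and Slc8a3 at 5 months were called. In the heterozygous cortex libraries the striatal markers were also higher (11 of 11 positive, median 1.77), and their part in the cortical values was not tested.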

How the results depend on the processing

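Counts of the 9 genes between genotypes are properties of a set chosen on those values and support nothing. Of them, edgeR called 0 at 2 months, and DESeq2, all 12 libraries in 1 fit, no filter and the fit without control mouse 1 each called 2 (0 to 2 over single libraries left out). For the calcium lists at 2 months the count of 0 became 3 with DESeq2, 2 with all 12 libraries and 1 with no filter, and was 0 to 11 when 1 library was left out, with 11 without control mouse 1. At 5 months 4 of the 9 genes passed with no fold change threshold instead of 2, and 5 list genes were called with all 12 libraries instead of 14. With 1 library left out, the list counts were 0 to 1 in cortex (1 without control mouse 1 or 3) and 0 to 7 in spinal cord (7 without heterozygous mouse 1). Between control tissues 3 to 5 of the 9 genes were called (5 without cortex mouse 1). Interactions with age, 0 in edgeR, were 4 with DESeq2, 3 with no filter and 0 to 3 with 1 library left out (3 without 2-month control mouse 1). Interactions with tissue, 3 in edgeR, were 51 with DESeq2, 20 with no filter and 0 to 31 with 1 library left out (31 without cortex control mouse 3). The cause of these shifts was not tested. The other counts of the 9 genes, the calcium lists and the interactions, 67 with 1 library left out and 67 under other settings, stayed within 1.5 times the count in the text. Calls over all genes moved further. With 1 library left out they were 0 to 362 at 2 months, 433 to 1022 at 5 months, 0 to 134 in cortex, 0 to 643 in spinal cord, 0 to 304 for control age and 5424 to 9236 between control tissues.

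With 1 library left out, signs of single genes turned only for values that were not called. Between genotypes these were Ryr1 at both cerebellar ages, Pvalb at 2 months, Atp2a2, Atp2a3, Casq2, Stim1 and Calb1 in cortex, and Ryr1, Atp2a2, Atp2a3, Casq2, Stim1 and Pvalb in spinal cord. The median of the Purkinje markers at 2 months turned from -0.049 to 0.049 without control mouse 1. The length and GC offset moved 2-month Car8 to -0.28 and Calb1 to -0.42. With age, Itpr1 ranged from -0.091 to 0.0016, Atp2a3 from -0.13 to 0.0027, Stim1 from -0.12 to 0.0063 and Pvalb from -0.23 to 0.055, each highest without 2-month control mouse 1, and Car8 from -0.067 to 0.0022, highest without mouse 3. Between tissues, Atp2a3 ranged from -0.080 to 0.29 and Casq2 from -0.28 to 0.30, both lowest without spinal cord mouse 1, while Casq2 was -0.047 without cortex mouse 2. Stim1 ranged from -0.20 without cortex mouse 1 to 0.047 without cortex mouse 3.

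Replicate numbers are shared only by cortex and spinal cord, and the labels do not say whether they mark the same mice. In control mice the deviations of same-numbered cortex and cord libraries correlated at -0.080 to -0.0064, and of differently numbered ones at -0.074 to 0.078. In heterozygous mice these were 0.055 to 0.067 and -0.068 to 0.013. Whether the numbers are pairs is thus not settled. The main fits did not use them, and a replicate block was an alternative. With the replicate block the count of tissue interactions was 0 instead of 3, the 9 genes had 0 calls between genotypes in either tissue and 3 between control tissues, and no other call changed.

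With 3 mice a group, some standard errors were 0.29 or more. They were those of Casq2 in cortex and spinal cord (21 to 71 reads a library) and of Ryr1 and Car8 in spinal cord. Differences of that size were not detectable there. The labels do not say how mice were distributed over sequencing runs.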
